A study of Mus musculus with 12 samples.

Results

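F-box proteins are the interchangeable substrate receptors of SCF ubiquitin ligases, and their genes were compared between the tibialis anterior muscle of dystrophic mdx/mTR mice and of wild-type mice. The genes were chosen by symbol, as every Fbxl, Fbxo or Fbxw name followed by a number, without Fbxo32 (atrogin-1). This gave 76 of the 24421 genes in the count table, 18 named Fbxl for leucine-rich repeats, 22 named Fbxw for WD40 repeats and 36 named Fbxo for other or no known domains. The tibialis anterior is a hindlimb muscle, and its RNA was sequenced in 6 C57Bl/6 (WT) and 6 mdx/mTR mice, all male and 4 months old. mdx is a mutant allele of the dystrophin gene Dmd, and mTR is the name of the mouse telomerase RNA gene Terc. The labels give no generation, littermate or further genotype, and effects of mdx, of mTR and of strain background cannot be told apart in these groups. The p-values set the difference between the groups against the spread between libraries within each group. The labels list the 12 libraries as separate samples without saying more of their origin, and each is taken as a separate mouse here.

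In an SCF ligase the cullin Cul1 holds the RING protein Rbx1 at its far end and the adaptor Skp1 at the other, and Skp1 docks the F-box motif of the receptor. The rest of the F-box protein binds the substrate, often only after the substrate has been phosphorylated or glycosylated, and a ubiquitin-conjugating enzyme recruited by Rbx1 transfers ubiquitin to it. Attachment of Nedd8 to the cullin turns the ligase on, the COP9 signalosome removes Nedd8, and Cand1 strips off the receptor so that another can take its place. In skeletal muscle, F-box proteins are known for the breakdown of sarcomere and signalling proteins during atrophy.

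Libraries held between 35136327 and 60330410 counts. Levels are given as CPM, counts set to a common library size with edgeR's trimmed mean of M-values (TMM), and 3 counts in a library corresponded to 0.0460 to 0.0837 CPM. Dmd checked the labels, and its mdx/mTR level was 19.7% of WT, a log2 fold change of -2.34 ± 0.09 (SE, n = 6 per group) with an edgeR adjusted p of 8.3e-10. Terc had 2 counts in all libraries together and checked nothing. The summed CPM of 7 macrophage markers was 81.7 to 142.1 in WT and 229.0 to 620.0 in mdx/mTR, with 6 of 7 higher by the test. Fibro-adipogenic markers ranged from 894.5 to 1641.4 against 2244.9 to 4446.6, with 6 of 6 higher, and satellite cell and myoblast markers from 65.1 to 79.7 against 94.7 to 179.2, with 4 of 6 higher and 1 lower. Markers of immune and connective tissue cells were thus mostly higher. Dividing-cell markers summed to 0.861 to 11.3 CPM against 4.81 to 33.5, and all 4 of the 6 that could be tested were higher. T and B cell markers summed to 0.444 to 1.62 CPM against 1.69 to 3.69, with 1 of 2 tested higher. Markers of vessels and nerve sheath went the other way. Endothelial markers summed to 474.3 to 630.8 CPM against 377.3 to 495.4 (4 of 6 lower), and Schwann cell markers to 72.1 to 88.4 against 52.0 to 69.0 (4 of 6 lower). Muscle fibre genes summed to 138903.8 to 155366.2 CPM in WT and 103506.1 to 139256.4 in mdx/mTR (1 higher, 1 lower), and no marker was at 0 in every library. In this bulk RNA, fewer cells of a type and less RNA per cell cannot be told apart, and the part these cell markers play in any F-box difference was not tested.

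Of the 76 F-box genes, 55 had enough counts to test, and 28 of the 55 changed at an edgeR adjusted p under 0.05. A total of 15 rose in mdx/mTR and 13 fell. The share called, 50.9%, stood beside 48.3% of all 13937 genes tested, so the family as a group was called about as often as any gene. The same held for each direction, with 27.3% of tested members higher beside 25.0% of all genes, and 23.6% lower beside 23.4%. In 17 members the 6 WT and 6 mdx/mTR values did not overlap, and over all tested genes 25.2% were separated in this way. The median log2 fold change was 0.06 over the 55 members and 0.01 over all genes, and the median size among called genes was 0.43 for members and 0.44 for all. When libraries were scaled by their totals alone, the median of all genes moved to 0.17. Calls then shifted upward in the whole table, with 40.2% of all genes higher and 11.2% lower, and 26 members were higher and 9 lower. Of the 28 called members, 24 were called again, so the split between risers and fallers depends on the scaling.

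**Figure D1:**
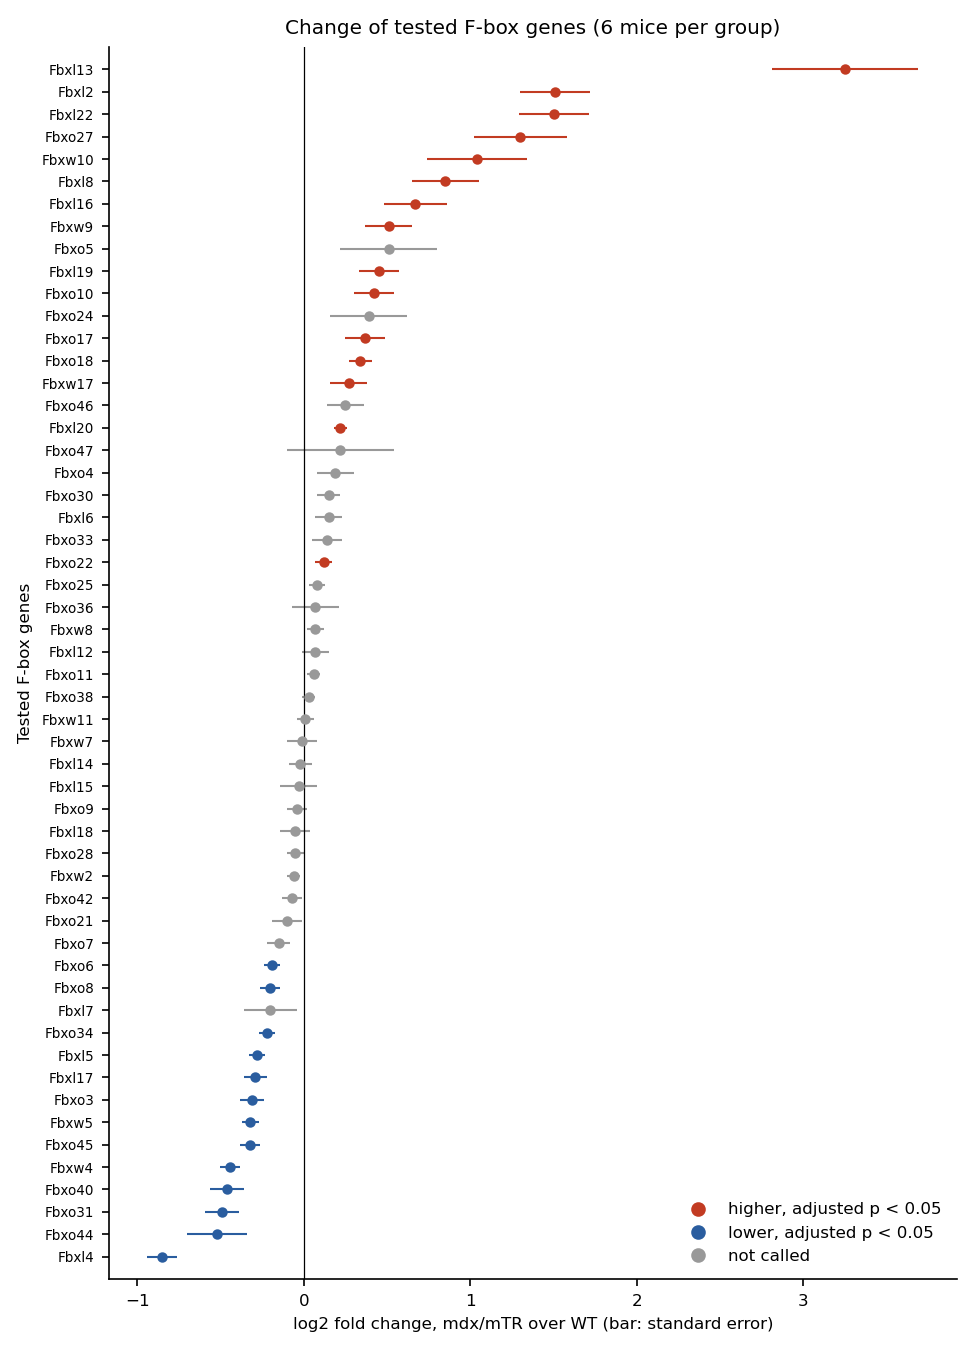
Difference between mdx/mTR and WT as a log2 fold change (x axis) for 54 of the 55 tested F-box genes, ordered by size, with bars of 1 SE on each side and colour for the edgeR call. The 15 genes that rose reach 3.25 (Fbxl13), and the 13 that fell reach -0.85 (Fbxl4). Fbxl13, Fbxw10 and Fbxo27 passed the count filter only through mdx/mTR.

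By abundance, 3 of the 26 tested members with a mean of 20 CPM or more rose and 11 fell, beside 15.3% of all genes of that level higher and 38.8% lower. The 12 members between 5 and 20 CPM held 4 that rose and 2 that fell, beside 29.4% and 16.8%. Of the 17 members under 5 CPM, Fbxl13, Fbxw10, Fbxo27 and Fbxo47 passed the count filter only through the mdx/mTR libraries. Their direction was thus partly set by the filter. The first 3 of them were among those that rose, and Fbxo47 was not called (0.22 ± 0.32 SE in log2 units, edgeR adjusted p = 0.595). The other 13 reached the minimum in every WT library, and 5 of them rose and 0 fell. The shares over all genes under 5 CPM, 33.2% higher and 9.78% lower, include genes kept in the same way. Among the subfamilies, 7 of 17 tested Fbxl genes rose and 3 fell, 5 of 29 Fbxo genes rose and 8 fell, and 3 of 9 Fbxw genes rose and 2 fell. Over all genes 25.0% were higher and 23.4% lower. The subfamily counts include the 3 risers kept only through mdx/mTR, and differences between subfamilies were not tested.

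**Figure D2:**
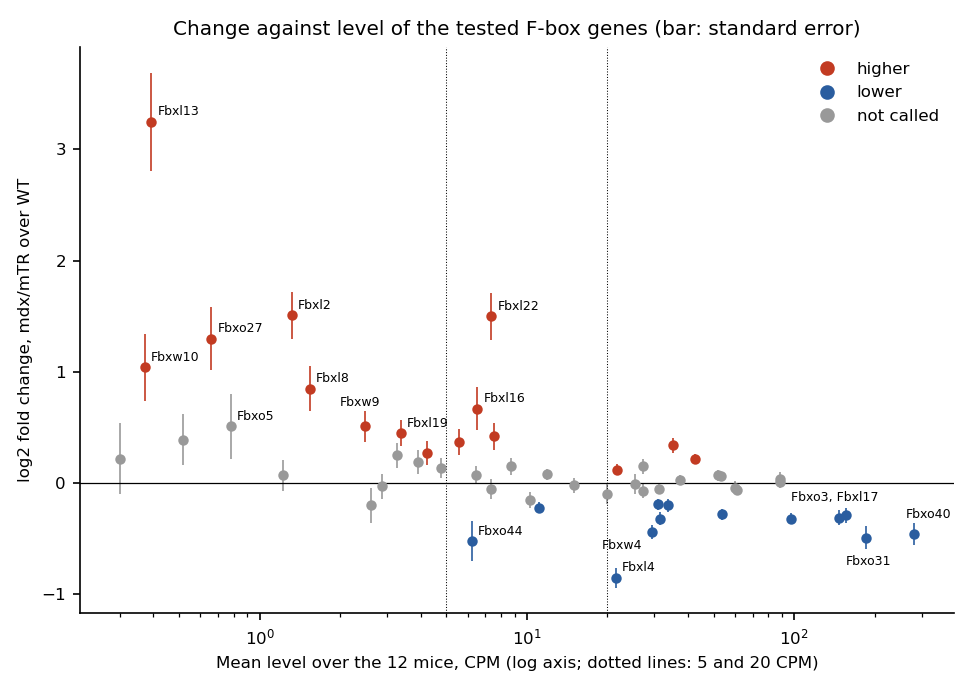
Difference between mdx/mTR and WT as a log2 fold change (y axis) against mean CPM over the 12 libraries (log x axis) for the 55 tested F-box genes, coloured by edgeR call. Of the 26 members at 20 CPM or more, 11 fell and 3 rose, and the points of Fbxl13, Fbxw10 and Fbxo27 at the left passed the count filter only through mdx/mTR.

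Of the 4 receptors with known roles in muscle mass and sarcomere turnover, 1 fell, 1 rose and 2 did not pass the test. Among all genes tested, 25.0% were higher and 23.4% lower, near these shares. Fbxo40 is a muscle-specific receptor known for degrading the insulin receptor substrate IRS1. Its level ran from 264.1 (median 334.7) up to 345.5 CPM among WT mice and from 183.6 (median 225.7) up to 294.5 CPM among mdx/mTR mice. It fell to 72.9% of WT (-0.46 ± 0.10 SE in log2 units, edgeR adjusted p = 0.0026). The groups overlapped only because of the lowest WT mouse, WT2, since the other WT values started at 327.6 CPM. Fbxl22, a receptor of striated muscle known for acting on the sarcomere proteins alpha-actinin and filamin C, rose 2.84-fold. Its level was 2.81, 3.93 and 4.35 CPM (lowest, median and highest) in WT against 7.16, 9.84 and 19.1 CPM in mdx/mTR. Every mdx/mTR mouse was above every WT mouse (1.5 ± 0.21 SE in log2 units, edgeR adjusted p = 8.9e-05).

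The annotation places Fbxl22 on the minus strand at chr9:66508459-66514593 (GRCm38), 43 bases downstream of the end of Usp3 on the same strand, and 8.06% of its exonic bases overlap Herc1 on the opposite strand. Strand handling of the counts is not given in the sources used here, so reads from overlapping genes cannot be told apart. Herc1 was the more abundant, at 159.8 to 186.3 CPM in WT and 143.9 to 183.8 in mdx/mTR, with a log2 fold change of -0.02 ± 0.06 SE (edgeR adjusted p = 0.826). Usp3 rose by 0.15 ± 0.05 SE on the log2 scale (edgeR adjusted p = 0.0379).

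Fbxo30 and Fbxo21, the receptors known as MUSA1 and SMART from denervation and fasting atrophy, did not pass the test. Fbxo30 read 23.3, 26.3 and 27.0 CPM in WT and 24.9, 29.0 and 32.4 in mdx/mTR (0.15 ± 0.07 SE in log2 units, edgeR adjusted p = 0.0887). Fbxo21 read 17.7, 20 and 24.7 CPM against 16.0, 19.4 and 21.9 (-0.10 ± 0.09 SE, edgeR adjusted p = 0.344). The groups overlapped for both. Fbxo30 was called higher without mdxmTR3 (0.18, edgeR adjusted p = 0.0478), without mdxmTR5 (0.18, edgeR adjusted p = 0.0377), with upper quartile scaling (0.19, edgeR adjusted p = 0.0316) and with library totals alone (0.30, edgeR adjusted p = 0.00155). Fbxo32, the atrophy receptor kept out of the list, stood at 682.5, 853.2 and 1284.1 CPM in WT and 380.4, 642.0 and 827.7 in mdx/mTR (-0.57 ± 0.19 SE, edgeR adjusted p = 0.024).

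Of the 3 receptors tied to mitochondria and iron, 2 fell, beside 23.4% of all genes tested. Both had a mean of 20 CPM or more, where 38.8% of all genes were lower. Fbxl4, a mitochondrial protein known for holding back mitophagy, showed the largest fall among the members. Its values were 22.9, 27.9 and 31.5 CPM in WT and 12.8, 15.4 and 17.7 in mdx/mTR, with no overlap. This was 55.6% of WT (-0.85 ± 0.09 SE in log2 units, edgeR adjusted p = 1.2e-05). Fbxl5, the iron-sensing receptor that degrades the iron regulatory protein IRP2, went from 54.7, 59.6 and 60.6 CPM to 41.9, 49.2 and 52.0, also with no overlap (-0.28 ± 0.05 SE, edgeR adjusted p = 8e-04). Its exons overlap Bst1 on the opposite strand by 98 bases, and Bst1 was higher by 2.17 ± 0.46 SE on the log2 scale. Fbxo7, a partner of the mitophagy ligase parkin, read 10.5, 10.8 and 11.1 CPM against 8.30, 9.87 and 10.8 (-0.15 ± 0.07 SE, edgeR adjusted p = 0.0698), and was called lower without mdxmTR3 (-0.18, edgeR adjusted p = 0.037).

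The 250 bases before the annotated start are shown for the 3 members with the largest falls among those above 20 CPM, Fbxl4, Fbxo31 and Fbxo40. The bases are also shown for Fbxo27, a riser without overlap between the groups that passed the count filter only through mdx/mTR. They are RefSeq sequences on GRCm38.p6, taken at the start that GENCODE also gives where the table holds several, written 5′ to 3′ on the gene's strand, and capitals mark CAGCTG, an E-box of the kind bound by myogenic factors. The windows are chr4:22357293-22357542 (plus strand) for Fbxl4, chr8:121578807-121579056 (minus) for Fbxo31, chr16:36990468-36990717 (minus) for Fbxo40 and chr7:28692599-28692848 (plus) for Fbxo27.
Fbxl4: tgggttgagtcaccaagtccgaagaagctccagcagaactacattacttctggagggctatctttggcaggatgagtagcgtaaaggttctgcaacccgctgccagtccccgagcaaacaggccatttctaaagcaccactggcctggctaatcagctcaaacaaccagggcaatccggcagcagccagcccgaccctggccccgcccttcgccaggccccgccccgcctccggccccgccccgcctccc
Fbxo31: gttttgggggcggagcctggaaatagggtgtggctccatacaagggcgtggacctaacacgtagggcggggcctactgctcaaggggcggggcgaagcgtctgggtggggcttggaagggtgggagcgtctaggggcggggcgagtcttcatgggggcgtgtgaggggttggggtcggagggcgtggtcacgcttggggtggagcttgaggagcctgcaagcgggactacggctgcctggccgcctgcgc
Fbxo40: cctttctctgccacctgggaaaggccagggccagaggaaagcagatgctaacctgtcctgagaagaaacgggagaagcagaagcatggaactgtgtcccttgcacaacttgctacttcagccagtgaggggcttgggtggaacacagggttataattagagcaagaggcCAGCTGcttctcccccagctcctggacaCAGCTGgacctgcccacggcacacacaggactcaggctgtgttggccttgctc
Fbxo27: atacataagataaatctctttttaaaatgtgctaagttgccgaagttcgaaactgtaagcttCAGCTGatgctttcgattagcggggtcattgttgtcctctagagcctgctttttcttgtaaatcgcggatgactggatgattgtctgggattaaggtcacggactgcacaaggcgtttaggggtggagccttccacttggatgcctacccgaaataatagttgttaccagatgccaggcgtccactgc
CAGCTG lay 81 and 53 bases before the start of Fbxo40 and 188 before that of Fbxo27, while the Fbxl4 and Fbxo31 windows held none of the motifs searched. On both strands, CAGCTG was in 13% of all 32851 RefSeq promoter windows of this length and in 23 of 78 windows of the 57 members in the table, and 10 of the 20 members with it were Fbxw copies of the untested chromosome 9 cluster described further on. Among called members it was upstream of 3 that rose (Fbxo17, Fbxo27, Fbxw17) and 3 that fell (Fbxo40, Fbxl17, Fbxw5). The MEF2-type core CTANNNNTAG was in 3.2% of all windows and 3 of the 78. The forkhead motif GTAAACA was in 3.17% and 0 of the 78, and the E-box CACGTG in 6.02% and 3 of the 78, at Fbxl2 and Fbxo10. All but GTAAACA read alike on both strands, and a window could hold more than 1 motif. A match describes letters in a window and shows no binding.

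Cell cycle and genome receptors held 8 members, of which 7 were tested, 1 fell and 1 rose, beside 23.4% and 25.0% of all genes. Fbxo31, known for degrading cyclin D1 after DNA damage, fell from 206.9, 216.1 and 235.4 CPM to 107.1, 165.1 and 174.4, or 71.3% of WT (-0.49 ± 0.10 SE in log2 units, edgeR adjusted p = 0.0012). The groups did not overlap. Fbxo18, an F-box DNA helicase that the annotation names Fbh1, rose from 29.2, 30.6 and 35.8 CPM to 33.2, 40.2 and 42.6 (0.34 ± 0.07 SE, edgeR adjusted p = 8.7e-04), with overlap.

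The best known tumour-suppressor receptor of the family, Fbxw7, which recognises cyclin E, Myc and Notch, was nearly level in its medians. It read 22.2, 25.7 and 27.9 CPM in WT and 21.1, 25.5 and 30.2 in mdx/mTR (-0.01 ± 0.09 SE, edgeR adjusted p = 0.914). Fbxw11, a beta-TrCP receptor for phosphorylated beta-catenin and the NF-kappaB inhibitor, read 82.6, 87.4 and 95.9 CPM against 79.1, 88.5 and 96.9 (0.01 ± 0.05 SE, edgeR adjusted p = 0.86). The groups overlapped for both. With library totals alone Fbxw11 was called higher (0.17, edgeR adjusted p = 0.00739). Fbxo5, the Emi1 inhibitor of the anaphase-promoting complex in dividing cells, was at 0.438, 0.583 and 0.955 CPM against 0.471, 0.888 and 1.38 (0.51 ± 0.29 SE, edgeR adjusted p = 0.159), beside the higher dividing-cell markers. Fbxo4 stood at 2.97, 3.58 and 4.21 CPM against 3.60, 4.07 and 4.94 (0.19 ± 0.11 SE, edgeR adjusted p = 0.151), and was called higher with library totals alone (0.36, edgeR adjusted p = 0.0315). Fbxl12 shares 44.3% of its 50-base stretches with other genes, and its log2 fold change of 0.07 ± 0.08 SE (edgeR adjusted p = 0.48) is uncertain for that reason. Its level was 5.72, 6.23 and 7.24 CPM in WT against 5.75, 6.64 and 7.14. Fbxo43, the meiotic relative of Fbxo5, had no count in any library.

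The Fbxo2 subgroup shares a domain that in several members binds N-glycans of misfolded glycoproteins. All 4 of its 5 members with enough counts were called, 2 in each direction, beside 48.3% of all genes tested. Of these, Fbxo27 passed the count filter only through the mdx/mTR libraries. The subgroup was not tested as a set. Fbxo27 rose 2.46-fold from 0.191, 0.342 and 0.698 CPM to 0.736, 0.898 and 1.31, without overlap (1.30 ± 0.28 SE in log2 units, edgeR adjusted p = 0.0019). Fbxo17 rose from 3.94, 4.72 and 5.77 CPM to 5.23, 6.16 and 7.63 (0.37 ± 0.12 SE, edgeR adjusted p = 0.0181). The others of the subgroup went the other way. Fbxo44 fell from 6.18, 7.39 and 9.21 CPM to 3.75, 4.54 and 8.42 (-0.52 ± 0.18 SE, edgeR adjusted p = 0.0245), and mdxmTR3 lay inside the WT range. Fbxo6 fell from 30.3, 33.2 and 35.8 CPM to 27.4, 28.1 and 31.5 (-0.19 ± 0.05 SE, edgeR adjusted p = 0.0096). The Fbxo44 call was lost without WT2 (edgeR adjusted p = 0.0551) and without mdxmTR1 (edgeR adjusted p = 0.0503). Both falls were lost with library totals alone (edgeR adjusted p = 0.0997 for Fbxo44 and 0.649 for Fbxo6). Fbxo2 itself had 45 counts in WT and 52 in mdx/mTR and was not tested.

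Of the 3 synapse and axon receptors, 1 fell, 1 rose and 1 was not tested, beside 23.4% of all genes tested lower and 25.0% higher. Schwann cell markers were lower (4 of 6), and their part was not tested. Fbxo45, which works with the giant ligase Mycbp2 at nerve terminals, fell from 32.1, 34.8 and 37.7 CPM to 25.4, 28.2 and 30.2 (-0.32 ± 0.06 SE, edgeR adjusted p = 5.2e-04). Fbxl20, known as scrapper for its control of the presynaptic protein RIM1, rose from 36.9, 39.2 and 42.1 CPM to 44.3, 45.8 and 47.1 (0.22 ± 0.04 SE, edgeR adjusted p = 6.8e-04). Neither pair of groups overlapped. The rise of Fbxl20 became 0.37 on the log2 scale with library totals alone. Fbxo41 had 18 counts in WT and 29 in mdx/mTR and was not tested. Fbxl21 had 20 counts in WT and 50 in mdx/mTR and was not tested. Fbxw8, which acts with Cul7 on IRS1, read 46.4, 50.3 and 55.1 CPM against 49.1, 53.8 and 55.1 (0.07 ± 0.05 SE, edgeR adjusted p = 0.249), with 34.4% of its 50-base stretches shared, and it was called higher with library totals alone (0.23, edgeR adjusted p = 0.00523). Fbxo9, linked to mTOR signalling, read 55.7, 60.7 and 65.8 CPM against 51.0, 60.6 and 63.6 (-0.04 ± 0.06 SE, edgeR adjusted p = 0.592).

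**Figure D3:**
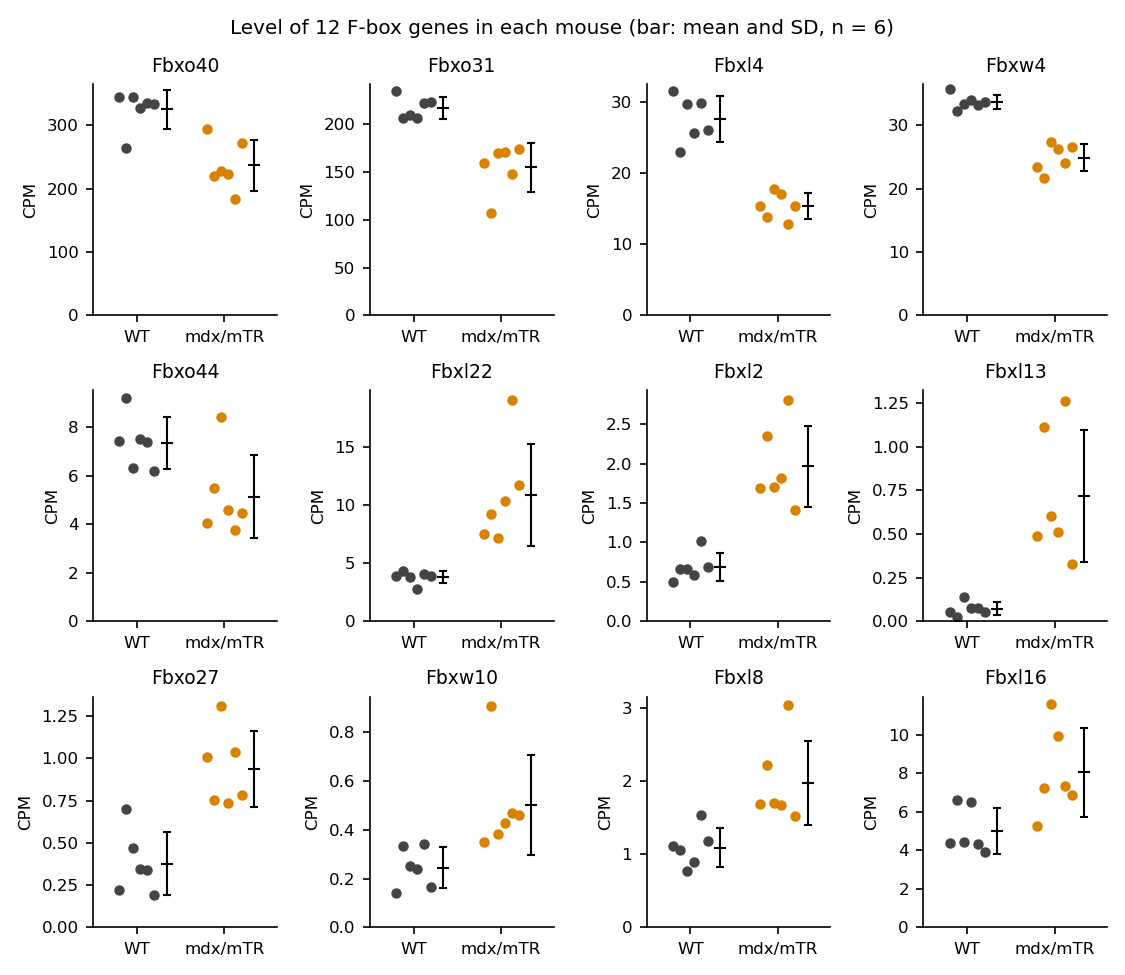
CPM (y axis, from 0) of 12 F-box genes in each of 6 WT and 6 mdx/mTR mice, with 1 point per mouse and the group mean and SD beside the points. Fbxl4 and Fbxo31 sit lower in every mdx/mTR mouse than in any WT mouse, and Fbxl13, Fbxl2, Fbxl22 and Fbxo27 sit higher. Fbxl13, Fbxo27 and Fbxw10 passed the count filter only through mdx/mTR.

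Apart from Fbxl22, the largest rises were in genes of very low level, beside the higher macrophage and fibro-adipogenic sums given above. Fbxl13 (minus strand, chr5:21483847-21645634) had 16 counts over all WT libraries, 1 to 5 in each, and 226 over all mdx/mTR libraries, 20 to 72 in each. Its level was 0.0279, 0.067 and 0.139 CPM in WT and 0.327, 0.556 and 1.26 in mdx/mTR, with no overlap. The ratio of counts after scaling was 9.85 (95% exact binomial interval 5.93 to 17.5, counting error only), and edgeR gave a log2 fold change of 3.25 ± 0.44 SE (adjusted p = 5.9e-05). Lrrc17, a secreted protein gene on the opposite strand with which it shares 161 exonic bases, rose by 1.76 ± 0.28 SE on the log2 scale (edgeR adjusted p = 2.3e-04). Relative to Lrrc17, Fbxl13 stood at 1.33 to 9.8% among WT mice and at 12 to 16.1% among mdx/mTR mice, without overlap. Each WT share rests on only 1 to 5 Fbxl13 counts, beside 48 to 75 Lrrc17 counts per library. Fbxl13 also passed the count filter only through the mdx/mTR libraries, which partly set its direction. Whether its rise goes beyond that of Lrrc17 was not tested.

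Fbxl2 (minus strand, chr9:113963637-114046191), a lipid-anchored receptor, rose 2.84-fold from 0.5, 0.668 and 1.02 CPM to 1.41, 1.76 and 2.81, without overlap (1.51 ± 0.21 SE in log2 units, edgeR adjusted p = 6.7e-05). It overlaps Ubp1 on the opposite strand over 11.2% of its exonic bases, and Ubp1 fell by 0.12 on the log2 scale (± 0.04 SE, edgeR adjusted p = 0.0382). Fbxo3, a receptor known for targeting the Fbxl2 protein, fell from 151.4, 162.0 and 175.4 CPM to 106.9, 135.9 and 147.9, without overlap (-0.31 ± 0.07 SE, edgeR adjusted p = 0.0031). The remaining called members of low level rose less. Fbxw10 went from 0.139, 0.244 and 0.340 CPM to 0.349, 0.444 and 0.906, without overlap (1.04 ± 0.30 SE, edgeR adjusted p = 0.0115), and shares 237 exonic bases with Trim16, whose log2 fold change was -0.07. Fbxw10 also passed the count filter only through the mdx/mTR libraries, which partly set its direction. Fbxl8 went from 0.777, 1.09 and 1.54 CPM to 1.52, 1.69 and 3.05 (0.85 ± 0.20 SE, edgeR adjusted p = 0.0039), and Fbxl16 from 3.94, 4.39 and 6.59 to 5.25, 7.30 and 11.6 (0.67 ± 0.19 SE, edgeR adjusted p = 0.0099). Both overlapped between groups. Fbxw9 went from 1.53, 2.02 and 2.71 CPM to 2.32, 2.88 and 3.43 (0.51 ± 0.14 SE, edgeR adjusted p = 0.0081), with 217 exonic bases under the antisense A230103J11Rik, which was higher by 1.22 ± 0.38 SE on the log2 scale.

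Smaller rises were called in Fbxl19, a receptor that reads unmethylated CpG DNA (0.45 ± 0.12 SE, edgeR adjusted p = 0.0078), and in Fbxo10, known for degrading BCL2 (0.42 ± 0.12 SE, edgeR adjusted p = 0.0127). Fbxl19 went from 2.46, 2.91 and 3.18 CPM to 3.19, 3.85 and 4.71, without overlap. Fbxo10 went from 5.69, 6.09 and 8.15 CPM to 6.80, 8.20 and 11.1, with overlap. Fbxw17 (0.27 ± 0.11 SE, edgeR adjusted p = 0.0476) and Fbxo22 (0.12 ± 0.05 SE, edgeR adjusted p = 0.0405) lay just under the threshold. Fbxw17 went from 3.50, 3.84 and 4.21 CPM to 4.24, 4.37 and 6.14, without overlap, and Fbxo22 from 19.9, 20.9 and 21.3 to 20.9, 22.8 and 23.8, with overlap. Other genes share 15.9% of the 50-base stretches of Fbxo22, and 15.4% of its exonic bases overlap Nrg4 on the opposite strand. Fbxw17 was not called without mdxmTR5, its highest mouse (0.17 on the log2 scale, edgeR adjusted p = 0.095), and its call was lost in 14 of 21 alternatives. The call of Fbxo22 was lost in 15 of 21, including with each of the 6 WT mice left out in turn. The rises became 0.43 (Fbxw17) and 0.28 (Fbxo22) on the log2 scale with library totals alone.

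The other falls were moderate. Fbxw4, a WD40 receptor, fell from 32.2, 33.5 and 35.7 CPM to 21.7, 25.1 and 27.3 (-0.44 ± 0.06 SE, edgeR adjusted p = 5.1e-05), though 21.4% of its exonic bases overlap Gm17018. Fbxw5 fell from 99.5, 109.6 and 116.8 CPM to 79.8, 88.9 and 90.9 (-0.32 ± 0.05 SE, edgeR adjusted p = 2e-04). Fbxl17, a quality-control receptor for BTB-domain dimers, fell from 156.3, 176.6 and 179.1 CPM to 111.1, 142.1 and 154.4 (-0.29 ± 0.07 SE, edgeR adjusted p = 0.0048). In none of these genes did the groups overlap. Fbxo34 (-0.22 ± 0.05 SE, edgeR adjusted p = 0.0039) and Fbxo8, which carries a Sec7 domain (-0.20 ± 0.06 SE, edgeR adjusted p = 0.0186), fell by less. Fbxo34 went from 10.9, 12 and 12.4 CPM to 9.65, 10.1 and 10.8, without overlap, and Fbxo8 from 33.1, 36.5 and 38.5 to 27.5, 32.2 and 34.2, with overlap. Other genes share 22.5% of the 50-base stretches of Fbxo34, and its value is uncertain for that reason. With library totals alone, the falls of Fbxo34 and Fbxo8 were lost, and those of Fbxo45, Fbxl17, Fbxw4, Fbxw5, Fbxo3 and Fbxl5 shrank by over 1.5 times but were still called (edgeR adjusted p from 0.00146 to 0.0424).

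Levels of different genes were compared per length, as CPM per kilobase of each gene's longest protein-coding transcript. The 5 most abundant members in WT by this measure were Fbxo40 at 63.3, Fbxo31 at 49.9, Fbxw5 at 45.4, Fbxl17 at 34.8 and Fbxo3 at 34.4 CPM per kilobase, and in mdx/mTR they stood at 46.1, 35.6, 36.4, 28.4 and 27.8. All 5 were called lower, beside 38.8% of all genes at 20 CPM or more. They were picked on the same WT values, so their lower levels here are a description only. The order of their WT means was not tested. They made up 40.7 to 43.9% of the summed F-box level per length in WT (median 43.1%) and 33.6 to 38.8% in mdx/mTR (median 37.3%). The sum over all members was 510.2 to 547.7 CPM per kilobase in WT and 440.9 to 495.2 in mdx/mTR. That separation depends on the scaling, since with library totals alone the ranges were 495.3 to 513.7 and 483.7 to 511.1 and overlapped.

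The 27 tested members that were not called had log2 fold changes between -0.20 (Fbxl7) and 0.51 (Fbxo5), and 0 of them separated the groups. Of those outside the roles above, Fbxo46 came nearest to the threshold, at 0.25 ± 0.11 SE (edgeR adjusted p = 0.0866), and it was called without mdxmTR6 (0.31, edgeR adjusted p = 0.0288) and with library totals alone (0.41, edgeR adjusted p = 0.0152). Library totals alone also called Fbxo33, Fbxl6, Fbxo11, Fbxo38 and Fbxo25 higher. Another 21 members were not tested, and 13 of them had no count in any library. These were Fbxo43 and 12 of the 13 Fbxw genes clustered at chr9:109139447-109790670 (GRCm38), the last of which, Fbxw24, had 1 count. In this cluster Fbxw14 and Fbxw28 have 67.6% and 66.0% of their 50-base stretches shared with other genes. The rest of the cluster runs from 5.77% (Fbxw24) to 26.7% (Fbxw16), so most of their stretches are found in no other gene. How the authors' counting treated shared reads is not given in the sources used here. The zeros are uncertain for that reason, most of all for Fbxw14 and Fbxw28. The untested members with counts stayed low, the highest mean being 0.227 CPM. Fbxo48 had 45 counts in WT and 74 in mdx/mTR, Fbxo39 had 23 and 30, Fbxo16 had 1 and 14, and Fbxo15 had 1 and 0.

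**Figure D4:**
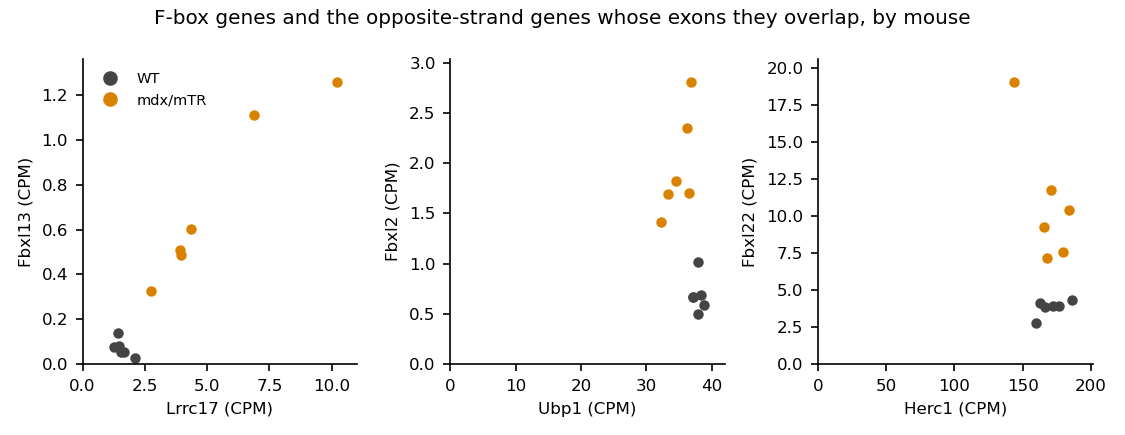
CPM of Fbxl13, Fbxl2 and Fbxl22 (y axes) against CPM of the opposite-strand genes Lrrc17, Ubp1 and Herc1 (x axes), 1 point per mouse. In mdx/mTR Fbxl13 is higher in the mice with more Lrrc17, up to 1.26 against 10.2 CPM, while the mouse with the most Fbxl22 (19.1 CPM) has the lowest Herc1 (143.9 CPM).

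The rest of the SCF machinery was followed in 6 lists of 48 genes, of which 47 were tested, 5 rose and 17 fell. These shares, 10.6% and 36.2%, stood beside 25.0% and 23.4% of all genes, and beside 15.3% and 38.8% of genes at 20 CPM or more, the level of 33 of the 47. The scaffold held 4 genes, and 0 of them passed the test. Skp1a, the adaptor that every receptor needs, had a log2 fold change of -0.08 ± 0.07 SE (edgeR adjusted p = 0.321). Cul1 had -0.01 ± 0.05 SE (edgeR adjusted p = 0.862) and Rbx1 0.02 ± 0.07 SE (edgeR adjusted p = 0.793). With library totals alone Cul1 (0.14, edgeR adjusted p = 0.0131) and Rbx1 (0.18, edgeR adjusted p = 0.00799) were called higher. The median over the 4 was 0.00, beside 0.01 over all genes. Per length, Skp1a stood at 93.7 to 104.2 CPM per kilobase in WT and 79.5 to 99.4 in mdx/mTR, and Cul1 at 34.3 to 40.4 and 35.8 to 40.5. Both groups overlapped.

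Neddylation genes had 2 of 10 higher and 4 lower (median -0.05). Of these 10 genes, 8 were at 20 CPM or more, where 15.3% of all genes were higher and 38.8% lower. The Nedd8 ligases Dcun1d4 and Dcun1d2 fell most. Dcun1d4 went from 13.8, 15.8 and 18.6 CPM to 10, 10.9 and 11.8 (-0.53 ± 0.08 SE, edgeR adjusted p = 8.2e-05), and Dcun1d2 from 128.4, 141.6 and 150.9 to 88.3, 100.1 and 112.6 (-0.50 ± 0.07 SE, edgeR adjusted p = 6.6e-05). Adaptor exchange and deneddylation genes had 1 of 13 higher and 4 lower (median -0.11), and 9 of the 13 were at that same level. The exchange factors moved apart. Cand1 rose from 19.0, 19.7 and 20.3 CPM to 24.2, 25.0 and 29.2 (0.39 ± 0.05 SE, edgeR adjusted p = 6.2e-05), and its muscle-enriched paralog Cand2 fell from 200.7, 219.4 and 241.2 to 151.9, 165.4 and 180.9 (-0.40 ± 0.06 SE, edgeR adjusted p = 1.1e-04). In none of these 4 genes did the groups overlap. With library totals alone the fall of Cand2 shrank to -0.25 on the log2 scale, and Cand1 stood at 0.55.

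Ubiquitin transfer to SCF substrates had 0 of 8 genes higher and 6 lower (median -0.24), and 7 of the 8 were at 20 CPM or more, where 38.8% of all genes were lower. Ube2r2, the paralog of the conjugating enzyme Cdc34, fell from 179.6, 190.3 and 195.7 CPM to 124.6, 148.2 and 158.6 (-0.39 ± 0.06 SE, edgeR adjusted p = 1.8e-04), and Ube2g1 fell by 0.37 on the log2 scale (± 0.07 SE, edgeR adjusted p = 8e-04). With library totals alone these became -0.24 and -0.22, and over all 6 lists 17 genes were higher and 10 lower. F-box genes outside the symbol rule had 1 of 6 higher and 1 lower (median 0.06), beside 25.0% and 23.4% of all genes. Skp2, the receptor for the cell cycle inhibitor p27, rose from 0.726, 0.772 and 1.33 CPM to 0.924, 1.35 and 2.26 (0.76 ± 0.25 SE, edgeR adjusted p = 0.0227), beside the higher dividing-cell markers, and its groups overlapped. The call was lost without mdxmTR2 (edgeR adjusted p = 0.0536) and without mdxmTR5 (edgeR adjusted p = 0.0544). Kdm2b fell by 0.25 on the log2 scale (± 0.08 SE, edgeR adjusted p = 0.0204), and its call was lost with library totals alone (edgeR adjusted p = 0.4).

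Partners of single F-box proteins had 1 of 6 higher and 2 lower (median -0.14), beside 25.0% and 23.4% of all genes. Cul7, the cullin of Fbxw8, rose from 7.47, 7.99 and 12.6 CPM to 10.6, 12.3 and 21.5 (0.73 ± 0.19 SE, edgeR adjusted p = 0.0057), and the groups overlapped through WT2. Mycbp2, the partner of Fbxo45, named here after its values were seen, fell from 156.9, 164.6 and 169.7 CPM to 106.6, 120.0 and 133.2 (-0.45 ± 0.05 SE, edgeR adjusted p = 2.3e-05). Its groups did not overlap. Fbxo45 and its partner were thus both lower, as were 38.8% of all genes at 20 CPM or more. Fbxw8 was not called while its cullin Cul7 rose. Agreement between receptors and partners was not tested.

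**Figure D5:**
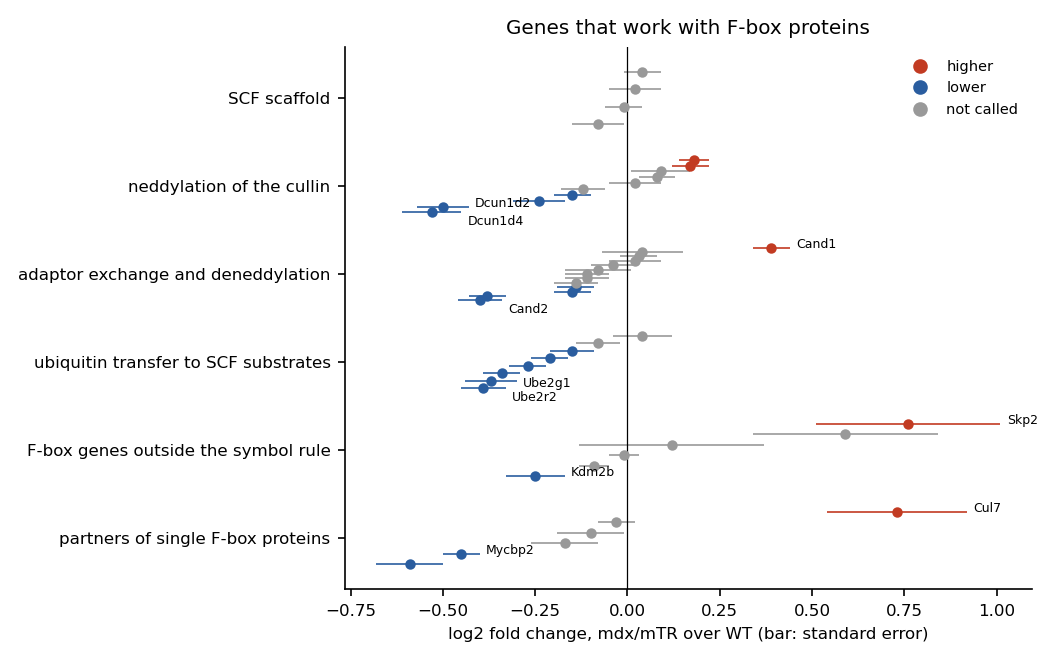
Difference between mdx/mTR and WT (log2 fold change, x axis) with bars of 1 SE for the tested genes of the 6 SCF lists, grouped by list and coloured by edgeR call. The 4 scaffold genes lie near 0, and ubiquitin transfer has 6 of 8 genes lower, beside 23.4% of all genes and 38.8% of those at 20 CPM or more.

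In the authors' deposited table, 14 members were higher and 13 lower by their adjusted p, and 27 of the 28 genes called with edgeR were called there in the same direction. Fbxo22 was the exception, with a log2 fold change of 0.11 and an adjusted p of 0.054 in the authors' deposited table. The share of all genes called there is not given here, and both sets of calls rest on the same libraries. The authors' deposited table gave 2.28 for Fbxl13, 1.38 for both Fbxl2 and Fbxl22, and -0.84 for Fbxl4. The alternative fits made here, DESeq2 among them, gave 3.02 to 3.52 for Fbxl13 wherever it was tested. How the deposited fold changes were estimated is not given in the sources used here, so their sizes may not be like measures.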

How the data were processed

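Messenger RNA of the tibialis anterior was sequenced in 6 WT and 6 mdx/mTR male mice. The authors deposited raw counts per gene symbol, and a table of their own comparison. The columns of that deposited table are, per the file headers, a normalized signal averaged over samples, a log2 fold change with its error, a test score and p-values with their adjusted values. STAR, FastQC, DESeq2 and the mm10 build are named in the submitters' processing notes, without versions. The counter, annotation and strand handling are not given in the sources used here. How reads were assigned can change the counts of genes that overlap or share sequence.

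The whole count table went unaltered into edgeR 4.0.16 (R 4.3.3). Of 24421 genes, filterByExpr kept 13937, which held 99.97% of counts. Libraries were scaled by TMM, group was the only term of the quasi-likelihood model, and Benjamini-Hochberg adjustment ran over all genes tested, with a threshold of 0.05. The SE is the size of the log2 fold change divided by the square root of F. CPM is computed from TMM-scaled library sizes. Intervals and floors cover counting error only. Count tables of replicate pairs differed with a chi-square per degree of freedom of 8.87 to 116, above sampling noise, and each library was counted as 1 replicate.

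All 76 members matched GENCODE M21 (GRCm38, the assembly of mm10), which gave positions, exon overlap, transcript length and the share of 50-base stretches found in other genes. RefSeq promoters were on GRCm38.p6. The members, gene lists and tests were chosen with earlier results of these data known. Members past the threshold with a log2 fold change of at least 0.5 in size, and those in the role lists, are given with values by group. From the other lists, the largest 2 called genes and Skp1a, Cul1 and Rbx1 are named. An uncalled member, and a gene of the partner list, are counted but not reported singly here. On simulated data with 200 changed genes, edgeR recovered 38 of 50 at 1.5-fold, 41 at 2-fold, 47 at 4-fold and 48 at 8-fold, with 8 false calls among 13937 genes. In the real data 48.3% of genes were called, so the simulation does not measure errors that come from the scaling. Alternatives were other filters, scalings, DESeq2 1.42.0, limma-voom (limma 3.58.1), a replicate block, a threshold of 0.01 and leaving out each mouse. Figures used Python 3.11.15 and matplotlib 3.10.9.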

Additional observations from a re-analysis of the deposited data

Results flagged for a closer look

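A single mouse stood far from the other 5 of its group in 11 of 138 sets of 6 CPM values, by the gap to its nearest neighbour as a share of the whole range, which exceeded Dixon's 95% critical value for groups of 6. Chance flags about 1 in 20 sets, or 6.9 of 138. WT2 held 3 of the 11, WT5 and mdxmTR5 held 2 each, and WT4, mdxmTR2, mdxmTR3 and mdxmTR4 held 1 each.

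WT2 had the lowest Fbxo40, at 264.1 CPM beside 327.6 to 345.5 in the other WT mice (ratio 0.78), the highest Fbxo18, at 35.8 beside 29.2 to 31.6 (ratio 0.634), and the highest Cul7, at 12.6 beside 7.47 to 8.65 (ratio 0.77). WT5 had the highest Fbxl2, at 1.02 CPM beside 0.5 to 0.684 (ratio 0.646), and the highest Skp2, at 1.33 beside 0.726 to 0.849 (ratio 0.797). WT4 had the lowest Fbxl22, at 2.81 CPM beside 3.86 to 4.35 (ratio 0.678). These WT values lie nearer to the mdx/mTR range than their group for Fbxo40, Fbxo18, Cul7, Fbxl2 and Skp2, and farther from it for Fbxl22.

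mdxmTR5 had the highest Fbxw17, at 6.14 CPM beside 4.24 to 4.43 (ratio 0.897), and the highest Fbxl6, at 11.4 beside 8.15 to 9.07 (ratio 0.714). mdxmTR2 had the highest Fbxw10, at 0.906 CPM beside 0.349 to 0.469 (ratio 0.784). mdxmTR3 had the highest Fbxo44, at 8.42 CPM beside 3.75 to 5.5 (ratio 0.626). mdxmTR4 had the lowest Fbxo18, at 33.2 CPM beside 39.7 to 42.6 (ratio 0.69).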

How the results depend on the processing

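Of the 28 called F-box genes, 19 kept their direction and call in every alternative in which they were tested, and 22 did so apart from the threshold of 0.01. Scaling by library totals gave 26 higher and 9 lower F-box genes, 17 and 10 in the SCF lists, and 5596 and 1560 over the whole table. At 0.01, 14 genes of the SCF lists were called (3 higher, 11 lower). Leaving out 1 mouse gave 25 to 29 F-box calls (13 to 16 higher, 12 to 14 lower), 18 to 25 in the SCF lists (4 to 6 higher, 13 to 19 lower) and 6125 to 6816 over all genes (3163 to 3562 higher, 2950 to 3254 lower).

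The labels do not say whether replicate numbers pair the mice. Of the 6 same-numbered pairs, 2 correlated over 0.1 (-0.155 to 0.354), which cannot decide it, and the main fit held no pairing term. With the replicate block, 26 F-box genes were called (13 higher, 13 lower), 22 in the SCF lists and 6420 in all.

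Uncalled genes near 0 changed sign. Library totals gave log2 fold changes of 0.108 (Fbxo28), 0.00313 (Fbxo7), 0.133 (Fbxl15), 0.0943 (Fbxw2), 0.139 (Fbxw7), 0.0851 (Fbxo42), 0.0555 (Fbxo21), 0.116 (Fbxl18), 0.147 (Fbxl14), 0.111 (Fbxo9), 0.0695 (Skp1a) and 0.143 (Cul1). Upper quartile scaling gave 0.0147 (Fbxl15), 0.0271 (Fbxw7), 0.0256 (Fbxl14) and 0.0283 (Cul1), and a filter of 1 CPM gave 0.000731 (Fbxw7) and 0.00168 (Cul1). Leaving out 1 mouse gave -0.0506 to 0.0234 for Fbxl14, -0.0705 to 0.0336 for Fbxw7, -0.012 to 0.0453 for Fbxw11, -0.0725 to 0.024 for Fbxl15, -0.0433 to 0.00263 for Cul1 and -0.00983 to 0.0573 for Rbx1. The cause was not tested. Depth limits the fold of Fbxl13, with 1 to 5 counts in each WT library.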
